A study of Mus musculus with 4 samples.

Results

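The 10 genes described here are Dcps, the target of the knockdown, and 9 other genes for enzymes that either cleave the mRNA cap or belong to the histidine-triad (HIT) hydrolases, the family of Dcps itself. They were taken by gene symbol from the deposited table, and 10 of 10 were found among its 32681 genes. The study sequenced RNA of 4 cultures of primary neocortical neurons, prepared from wild-type CD-1 mice at embryonic day 13; 2 carried a short hairpin RNA (shRNA) directed at DcpS, and the other 2 a control hairpin. The hairpin is called shDcPS-2 in the sample titles, and the labels give neither its sequence nor the share of cells transfected. They do not say whether litters were separate either, and p-values therefore cover the spread of these libraries alone, which may be technical. The question here was whether transcripts of other scavenger, decapping or HIT-family enzymes differ when the target is lower.

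An mRNA carries a methylated guanosine cap at its 5′ end, joined through a triphosphate bridge. When decay runs from the 3′ end, the RNA exosome leaves a short capped fragment, and DcpS, the scavenger enzyme, hydrolyses that cap and releases methylated guanosine monophosphate. When decay runs from the 5′ end, Dcp2 or another enzyme first cuts the cap from the intact mRNA, and an exonuclease then degrades the body. DcpS uses a histidine triad, a short motif of alternating histidines, to attack the phosphate; the same motif serves hydrolases of other nucleotides, while Dcp2, Nudt3 and Nudt16 use the unrelated Nudix fold and Dxo has a fold of its own.

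The triad can be read in the coding sequence of each of the 6 HIT genes, and these stretches are shown because they are what the family shares with the target. The coding transcripts of GENCODE M21 (GRCm38) were searched for in-frame histidine codons at alternating positions. Principal and consensus-coding transcripts were searched first, and the first transcript with a triad was used for each gene. Each of these held 1 triad. The triad was in 1 of 2 coding transcripts of Dcps and of Hint1 and in 6 of 7 of Fhit. For Hint2, Hint3 and Aptx it was in all of them. Each line gives 33 coding bases, 5′ to 3′ on the sense strand, with the histidine codons in capitals.
Dcps: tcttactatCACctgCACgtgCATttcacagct
Fhit: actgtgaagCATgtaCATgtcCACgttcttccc
Hint1: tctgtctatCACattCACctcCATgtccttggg
Hint2: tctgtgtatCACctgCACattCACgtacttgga
Hint3: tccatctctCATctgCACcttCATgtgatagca
Aptx: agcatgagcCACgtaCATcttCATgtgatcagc
In Dcps the stretch lies on the minus strand at chr9:35124746-35124778, and the first histidine is codon 274 of 338. In Hint1 it lies on the plus strand at chr11:54870291-54870323, where the first histidine is codon 110 of 126. The stretches of Hint2 (chr4:43654350-43654382) and Hint3 (chr10:30610383-30610415) are also within 1 exon, on the minus strand, while those of Fhit and Aptx are split by an intron. Against the 33 bases of Dcps, Hint3 matched at 22 positions, Hint1 at 21, Hint2 at 20, Fhit at 14 and Aptx at 12. The closest pair was Hint1 and Hint2, with 25 matching bases.

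The 8 bases from the second histidine codon of Dcps, CACGTGCA, hold both of the 7-base words CACGTGC and ACGTGCA. These words were picked out in earlier work on these data, so their frequency in the 3′ UTRs of lower genes is not independent evidence of anything. At the aligned 8 bases Fhit, Hint1, Hint2 and Hint3 matched Dcps at 6 positions and Aptx at 5, and 0 of these 5 genes held either word in the stretch shown. On the sense strand, a word was found in the annotated coding sequence of 12.6% of 13803 tested genes and in a 3′ UTR of 8.0% of 13709 tested genes with one. Among the 10 genes, words were found in the coding sequence of Dcps, in the 3′ UTR of its shorter-coding transcript Dcps-202, at 3 places in the 3′ UTR of Dcp2 and in the 5′ UTR of 1 Nudt3 transcript. The search describes letters only, since the hairpin's sequence is not in the sources used here.

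Dcps fell to 23.3% ± 0.716 (SD, n = 2) of its control mean, and the transcripts of the other 9 enzymes did not pass the test in either direction. The levels below are normalised read counts, which are reads divided by 1 factor per library. Differences were tested with limma, on log2(normalised read count + 1) of 18110 genes, with Benjamini-Hochberg adjusted p under 0.05, two-sided; by that rule 5.79% of all genes tested were called, 3.65% lower and 2.14% higher. With 2 libraries against 2, an exact permutation test of a single gene cannot go below p = 0.333, so the p-values rest on the spread that limma pools across genes.

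Dcps (ENSMUSG00000032040.15, chr9:35124408-35176061, minus strand) read 499.8 and 506.6 in controls 1 and 2, and 114.5 and 119.6 in DcpS shRNA libraries 1 and 2. The groups lay far apart and the libraries within a group were close, with means of 503 ± 4.82 and 117 ± 3.60 (SD, n = 2). The log2 fold change was −2.10 (SE 0.11), a fold of 0.234 with a 95% confidence interval from 0.201 to 0.273 (limma, Benjamini-Hochberg adjusted p 1.52e-08). These values rested on 526 and 494 reads in the controls and on 126 and 107 reads with DcpS shRNA. A non-coding gene on the opposite strand, 4930581F22Rik, shares 111 exon bases with Dcps; it read 84.5 and 70.4 with DcpS shRNA against 55.1 and 66.7 in the controls, so it was not lower, although the use of strand in counting is not given. The neighbours on either side, the sialyltransferase gene St3gal4 and the Toll-receptor adaptor gene Tirap, had log2 fold changes of 0.16 (SE 0.12) and −0.13 (SE 0.16) and were not called (limma, Benjamini-Hochberg adjusted p 0.533 and 0.733).

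**Figure D1:**
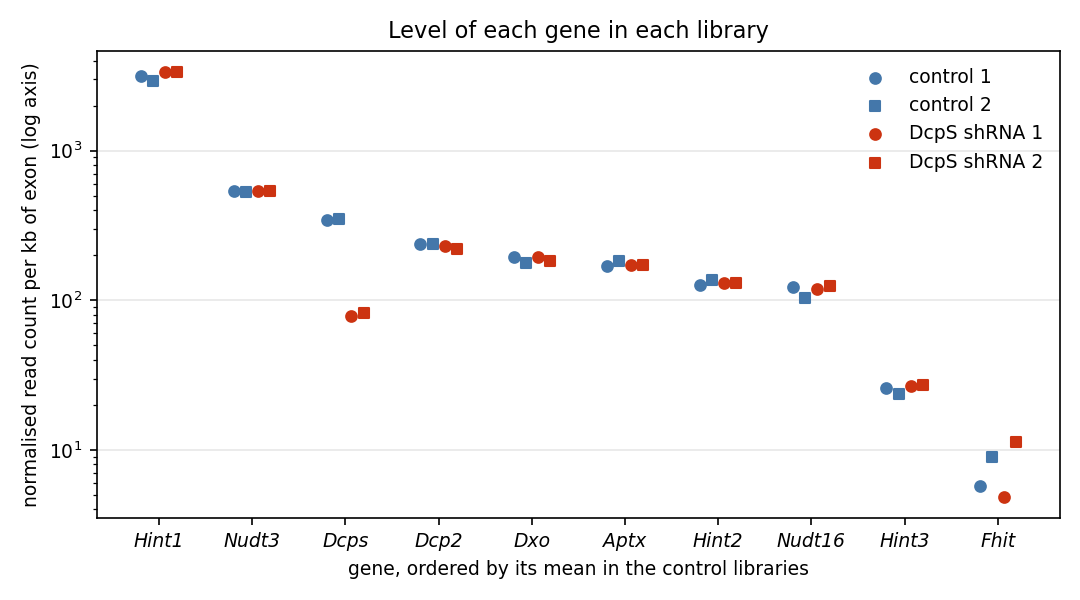
Normalised read count per kb of exon (log axis) of the 10 genes in each of the 4 libraries, with genes ordered by their control mean; blue is control shRNA, red DcpS shRNA, circles and squares replicates 1 and 2. The red points of Dcps sit near 80 against 344 and 349 in the controls, while those of the other 9 genes lie at or beside the blue ones.

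Set per length of annotated exon, the enzymes covered a wide range of transcript levels in the control cultures. Hint1 was the most abundant at 3029 ± 179 normalised reads per kb (SD, n = 2). Its mean over all 4 libraries lay above 98.6% of the tested genes with a length. Nudt3 followed at 530 ± 5.92 and Dcps at 347 ± 3.33. Next came Dcp2 at 237 ± 0.181, Dxo at 185 ± 12.1, Aptx at 176 ± 8.06, Hint2 at 131 ± 6.62 and Nudt16 at 112 ± 13.6 per kb (SD, n = 2). Dxo and Aptx overlapped between the control libraries, so their order is not settled by these data. The lengths count every annotated exon of a gene, whether or not it was used in these cultures. The SDs do not cover that limit on the order. Hint3 was low at 24.7 ± 1.57 and Fhit lowest at 7.34 ± 2.27 per kb. Their means over all 4 libraries lay above 25.4% and 9.79% of genes. With DcpS shRNA, Dcps stood at 80.7 ± 2.48 per kb, below Nudt16 at 122 ± 4.44 and above Hint3 at 27.1 ± 0.354. Of the summed per-kb level of the 6 HIT genes, Dcps made up 9.0% and 9.69% in the control libraries, and 2.11% and 2.18% in the DcpS shRNA libraries; Hint1 dominates that sum.

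Among the HIT hydrolases, Hint1 came nearest to a call. Hint1 (chr11:54866383-54870501, plus strand) encodes a purine nucleoside phosphoramidase, and inherited loss of HINT1 in people causes a neuropathy of peripheral axons. It read 2751.7 and 2531.0 with control shRNA, then 2907.4 and 2923.4 with DcpS shRNA, so both knockdown libraries were above both controls, by a margin smaller than the gap between the controls. Its log2 fold change was 0.14 (SE 0.06), a fold of 1.10 with an interval from 1.02 to 1.20. The unadjusted p was 0.0199, and 18.7% of all genes tested had one under 0.05; the adjusted p was 0.165 (limma, Benjamini-Hochberg). Without control 2 the log2 fold change was 0.08. The peroxidase gene Gpx3, the next gene to the right of Hint1, fell: it read 14.5 and 11.2 in the knockdown libraries, where the controls gave 25.7 and 44.1 (log2 fold change −1.33, SE 0.34; limma, Benjamini-Hochberg adjusted p 0.0277). Lyrm7, to the left, was not called (0.15, SE 0.13; limma, Benjamini-Hochberg adjusted p 0.583).

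Hint2 (chr4:43654227-43656466, minus strand), the mitochondrial relative of Hint1, read 200.79 and 200.03 with DcpS shRNA against 194.8 and 209.2 in the controls. Both knockdown values lay between the controls, and the fold was 0.993 with an interval from 0.839 to 1.17. Hint3 (chr10:30608141-30629632, minus strand), a further phosphoramidase of the family, read 142.5 and 130.2 in the control libraries, and 148.1 and 150.9 in the DcpS shRNA libraries. The groups of Hint3 did not overlap, yet at 127 to 163 reads a library the interval of its fold, 0.902 to 1.33, included no change. Hint3 shares 78 exon bases on the same strand with Ncoa7, a nuclear receptor coactivator gene (log2 fold change 0.27, SE 0.08; limma, Benjamini-Hochberg adjusted p 0.0674), so some of its reads cannot be assigned with certainty.

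Aptx (chr4:40682382-40703194, minus strand) encodes aprataxin, which removes AMP left on broken DNA ends by failed ligation and is mutated in a recessive ataxia. It read 1001.5 and 1068.6 with control shRNA, then 1006.7 and 1006.9 with DcpS shRNA, both within the range of the controls. The fold was 0.973 with an interval from 0.888 to 1.07. Fhit (chr14:9550092-11162035, minus strand) encodes a hydrolase of diadenosine triphosphate and spans a common fragile site. It read 7.3 and 16.8 in the knockdown libraries, where the controls gave 8.6 and 13.3, on 8 to 15 reads a library. The replicates differed more than the groups did, and the interval of its fold ran from 0.522 to 2.06.

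Among the enzymes that cut caps from intact mRNA, Dcp2 and Nudt3 were measured most precisely. Dcp2 (chr18:44380502-44424969, plus strand) is the catalytic subunit of the main cytoplasmic decapping complex. It read 1994.3 and 1907.6 with DcpS shRNA against 2058.1 and 2060.3 in the controls, so both knockdown libraries were below both controls. The log2 fold change was −0.08 (SE 0.05) and the fold 0.947 with an interval from 0.875 to 1.03, which was not a call (limma, Benjamini-Hochberg adjusted p 0.487). Nudt3 (chr17:27579382-27623495, minus strand) removes caps from a subset of mRNAs and also acts on diphosphoinositol phosphates. It read 2461.9 and 2423.3 in the control libraries, and 2489.5 and 2490.9 in the DcpS shRNA libraries, and its interval, 0.945 to 1.10, was the narrowest of the 10 genes on the log2 scale. Its exons share 416 bases with an annotated readthrough transcript from Rps10.

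Nudt16 (chr9:105128903-105131824, minus strand) is a second cytoplasmic Nudix decapping enzyme, first known for binding a small nucleolar RNA. It read 316.4 and 266.6 with control shRNA, then 308.9 and 325.2 with DcpS shRNA, where control 1 lay between the knockdown libraries. The fold of 1.09 had an interval from 0.935 to 1.27. Dxo (chr17:34837019-34839233, plus strand) removes incompletely methylated caps and degrades the exposed RNA. It read 378.9 and 357.6 in the knockdown libraries, where the controls gave 379.1 and 345.6, so the groups overlapped fully, and the fold was 1.02 with an interval from 0.888 to 1.16.

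In counts, 0 of the 9 genes other than Dcps were called by limma, and 1, Hint1, had an unadjusted p under 0.05. DESeq2 and edgeR's quasi-likelihood test on the recovered reads also called Dcps and 0 of the others. DESeq2 gave Fhit no adjusted p, so Fhit could not be called there. The groups did not overlap in 3 of the 9 in the higher direction (Hint1, Hint3 and Nudt3) and in 1 in the lower direction (Dcp2); over all genes tested, 24.4% lay apart as higher and 24.0% as lower. The log2 fold changes of the 9 ran from −0.08 to 0.14 with a median of 0.03, where all tested genes had a median of 0.00074. Leaving out Fhit, the 95% intervals of the 8 better measured genes all fell between 0.839-fold and 1.33-fold. No p above the threshold shows that a transcript was unchanged, but a change of any of these 8 as large as that of Dcps lay outside its interval.

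**Figure D2:**
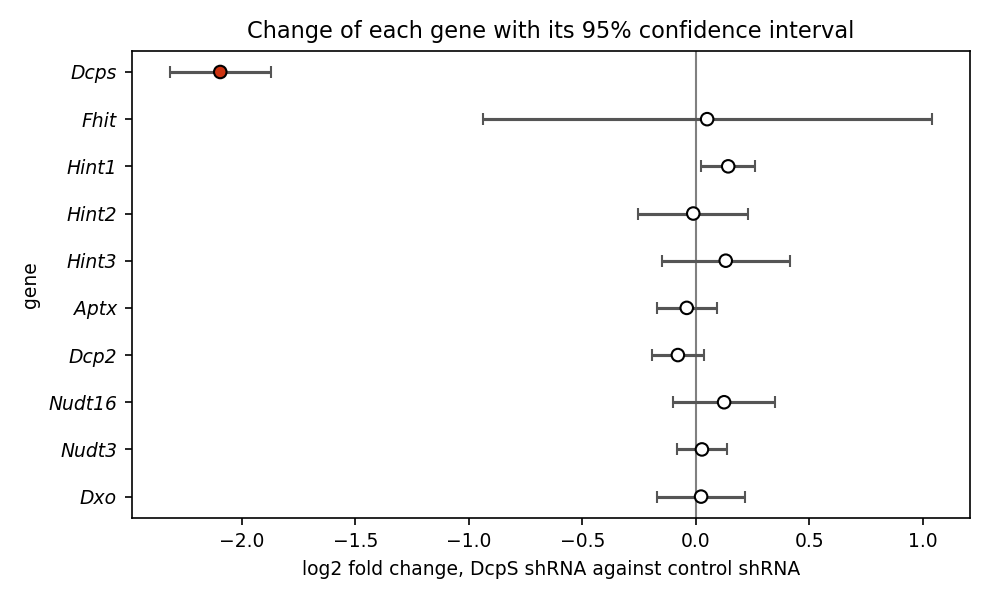
Log2 fold change of the 10 genes with DcpS shRNA against control shRNA (horizontal axis), with 95% confidence intervals from limma as bars; the filled red point passed the adjusted threshold and open points did not. Dcps sits at −2.10, the other 9 within −0.08 to 0.14, and the bar of Fhit is the widest.

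The surrounding pathways were described by 8 gene lists with 85 tested genes, of which 2 were called, 2.35% against 5.79% of all genes. Of the 88 listed genes, Nudt8 was too low to test, and Exosc6 and Eif4e1b were not analysed here. The 85 genes had a median log2 fold change of 0.04, and 14 of them (16.5%) had an unadjusted limma p under 0.05, against 18.7% of all genes tested. In 8 of the listed genes a 3′ UTR holds one of the words described above, and 0 of these 8 were called.

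Xrn1, the exonuclease that degrades mRNA bodies after decapping, was the one lower call. It read 1364.7 and 1239.3 with DcpS shRNA against 1525.0 and 1544.4 in the controls, so both knockdown libraries lay below both controls. The log2 fold change was −0.24 (SE 0.06; limma, Benjamini-Hochberg adjusted p 0.0291). The call was lost with DESeq2 (adjusted p 0.160) and, in limma with Benjamini-Hochberg adjustment, without control 1 (0.0819), control 2 (0.140) or DcpS shRNA 2 (0.108). The other 17 genes of the decapping cofactor list, among them the Dcp2 partners Dcp1a (−0.05) and Edc4 (0.00418), the helicase Ddx6 (−0.08) and the ring subunits Lsm1 (0.13) to Lsm7 (0.04), were not called, and the list's median log2 fold change was 0.05.

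Nudt5, which hydrolyses ADP-ribose and is a Nudix relative of Dcp2, was the one higher call. It read 835.2 and 837.9 in the control libraries, and 984.0 and 965.5 in the DcpS shRNA libraries (log2 fold change 0.22, SE 0.06; limma, Benjamini-Hochberg adjusted p 0.0494). The call was lost under 9 of 13 alternative settings, for example with edgeR's quasi-likelihood test (Benjamini-Hochberg adjusted p 0.0506), with the fold staying between 0.21 and 0.23 on the log2 scale. The other 18 tested Nudix genes were not called. Nudt12, which removes NAD caps, had a log2 fold change of −0.23 at 2.09 CPM (reads scaled to a common library total), and Nudt2, a hydrolase of diadenosine tetraphosphate, 0.18.

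Genes for the exosome and its Ski cofactors, which produce the capped fragments that DcpS hydrolyses, gave 0 calls among 16, with a median of 0.07 and 2 at an unadjusted limma p under 0.05 (0 with DESeq2 or edgeR after adjustment). The largest value was that of the ring subunit Exosc4 (0.19, SE 0.08; limma, Benjamini-Hochberg adjusted p 0.229). The list of cap binding and related genes, in which Cyfip1 and Cyfip2 do not bind the cap themselves, also gave 0 calls among 10 by limma, edgeR and DESeq2. In it 6 had an unadjusted limma p under 0.05, where 18.7% of all genes tested had one. These 6 were chosen for mention after their values were seen: the translation factors Eif4e (0.14) and Eif4e2 (0.13), the nuclear cap-binding subunit Ncbp2 (0.16), Cyfip2 (0.15) and Larp1 (0.13) were on the higher side and Cyfip1 (−0.17) on the lower. By size alone the largest was Eif4e3 (−0.20, SE 0.15; limma, Benjamini-Hochberg adjusted p 0.506).

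Of the 4 nucleotidases listed for nucleotide turnover after DcpS, 0 were called by limma, edgeR or DESeq2. The listing does not mean that all 4 act on what DcpS releases. Nt5c3b, which dephosphorylates the methylated guanosine monophosphate that DcpS releases, had a log2 fold change of 0.18. The deoxyribonucleotidase Nt5c had 0.24 (SE 0.09, limma, Benjamini-Hochberg adjusted p 0.1498). In this list 2 of the 4 had an unadjusted limma p under 0.05, where 18.7% of all genes tested had one. Nt5c read 449.4 and 390.7 with control shRNA, then 518.8 and 473.8 with DcpS shRNA. Its log2 fold change was 0.34 with control 1 left out and 0.14 with control 2 left out. It was 0.18 without DcpS shRNA 1 and 0.31 without DcpS shRNA 2, so its size depended on the libraries used while its sign did not. Cap synthesis and methylation genes gave 0 calls among 7 by the same 3 tools, 1 at an unadjusted p under 0.05, and the ribose methyltransferase Cmtr2 had the largest value (−0.18, SE 0.12; limma, Benjamini-Hochberg adjusted p 0.467). Repair genes that act with aprataxin gave 0 of 8 by these tools, 1 at an unadjusted p under 0.05. In the wider HIT-like superfamily, the sugar nucleotide transferase Galt (0.35, SE 0.18; limma, Benjamini-Hochberg adjusted p 0.325), Cwf19l1 (0.04) and Cwf19l2 (0.06) were not called, with 0 of 3 at an unadjusted p under 0.05 and 0 by edgeR or DESeq2.

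**Figure D3:**
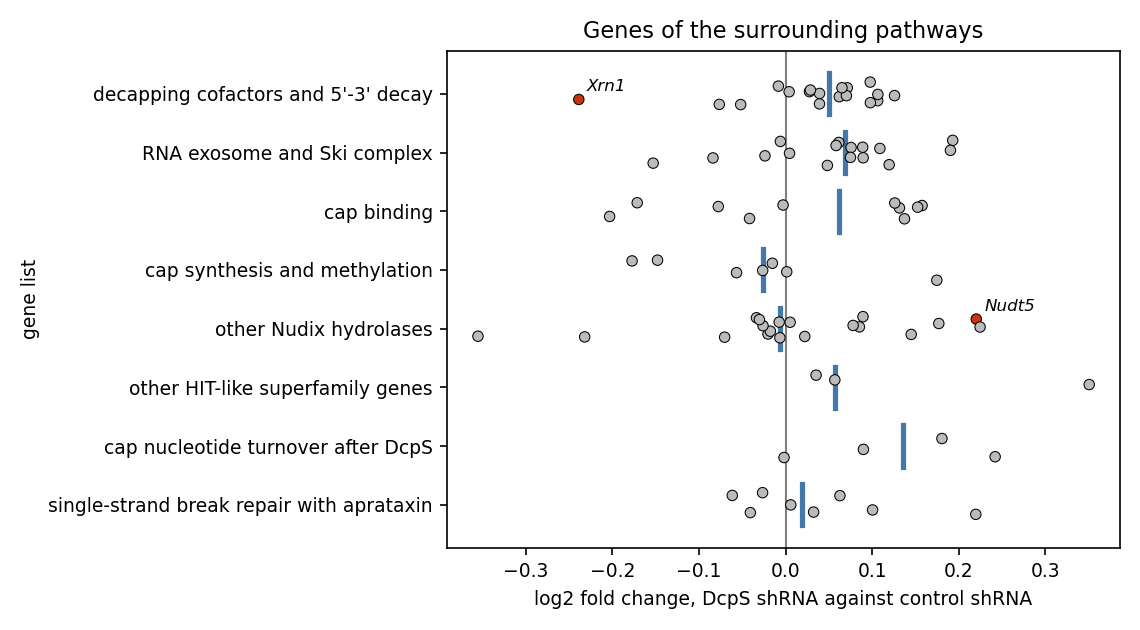
Log2 fold change with DcpS shRNA against control shRNA (horizontal axis) of each tested gene in 8 lists of surrounding pathways (rows); each point is a gene, red where it passed the adjusted threshold and grey where it did not, blue bars are list medians, and vertical scatter within a row carries no meaning. Of 85 genes, Xrn1 and Nudt5 are red and the medians lie between −0.03 and 0.14.

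Some other genes had a pattern over the 4 libraries close to that of Dcps. By distance in log2(normalised read count + 1) after subtracting the control mean, among 12288 other genes with at least 5 CPM, the nearest was the iron-carrier gene Lcn2 (distance 0.73), followed by Wfdc2 (0.765), the ectonucleotidase Enpp1 (1.08), the gelatinase Mmp9 (1.20) and the integrin Itga1 (1.22). Lcn2 read 195.3 and 244.7 in the knockdown libraries, where the controls gave 607.2 and 743.5, a smaller fall than that of Dcps and a wider gap between replicates. Enpp1 and Itga1 have a word in the 3′ UTR, and Lcn2, Wfdc2 and Mmp9 have none there. Closeness over 4 libraries mostly measures the size of the fall, so it describes these genes and carries no test.

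**Figure D4:**
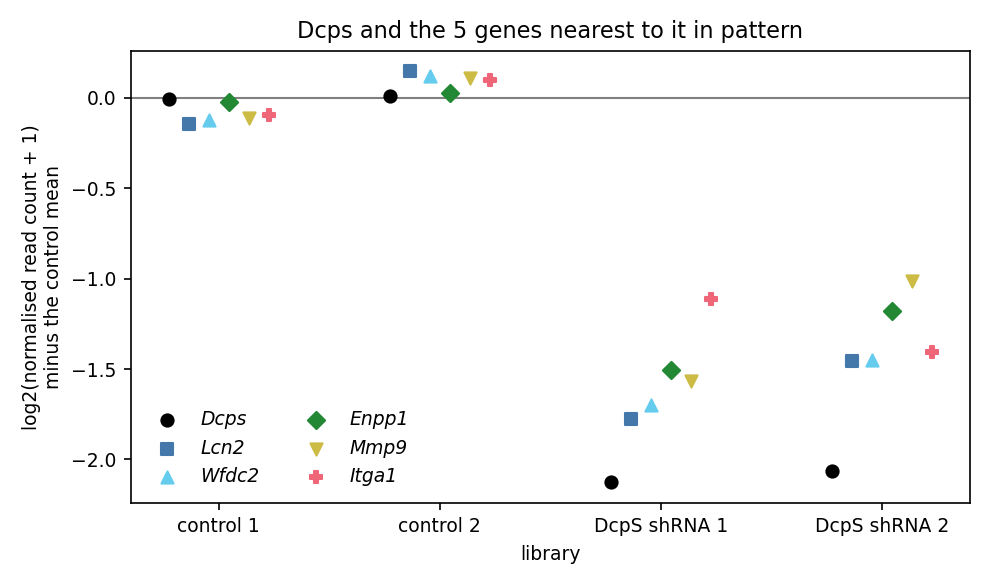
Log2(normalised read count + 1) minus the mean of the 2 controls (vertical axis) in each library, for Dcps and the 5 genes nearest to it. Dcps lies lowest in both DcpS shRNA libraries, and its controls lie closer together than those of Lcn2.

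The libraries held 17754768 to 21793685 recovered reads, and mitochondrial genes took 2.44% to 2.71% of them. Of 12 listed neuron markers 12 were expressed highly enough to test, with a summed level of 6108 to 6170 CPM in the controls and 5995 to 6019 CPM with DcpS shRNA; Syn1 and Rbfox3 were called higher and Snap25 lower. Markers of other cells were present, and some lists moved with the knockdown. Over all genes tested, 3.65% were called lower and 2.14% higher, and 18.7% had an unadjusted limma p under 0.05. Such a p was found for 5 of 12 neuron, 4 of 8 radial glia and 5 of 5 astrocyte genes. It was also found for 4 of 5 oligodendrocyte lineage, 4 of 5 endothelial and mural and 6 of 6 fibroblast genes. Of the fibroblast genes 6 of 6 were called lower, with a sum of 560 and 616 CPM in the controls and 341 and 330 CPM with DcpS shRNA. Endothelial and mural genes were called lower in 3 of 5 (Kdr, Pdgfrb and Acta2), with sums of 34.3 and 38.2 against 21.9 and 20.3 CPM. Pdgfrb made up most of these sums (mean 21.1 CPM). The other tested genes were very low and not called: Pecam1 was higher (log2 fold change 0.93, mean 0.663 CPM) and Cdh5 lower (−0.59, mean 0.352 CPM). Astrocyte genes were lower in 3 of 5 (Gfap, Aqp4 and Gja1) and higher in 1 (Aldoc), with a median log2 fold change of −0.67. Their sums, 241 and 245 against 252 and 255 CPM, rest mostly on Aldoc (mean 207 CPM) and do not show these falls. Oligodendrocyte lineage genes were lower in 1 (Pdgfra) and higher in 1 (Mbp) of 5, with a median log2 fold change of −0.58. Their sums were 23.4 and 24.96 against 23.6 and 23.0 CPM, with Mbp the largest part (mean 10.7 CPM). Radial glia genes were lower in 1 (Hopx) and higher in 1 (Nes) of 8, with sums of 1439 and 1366 against 1466 and 1455 CPM, and microglia genes (7.16 to 7.86 CPM in all libraries) were called in 0 of 5 by limma, 1 at an unadjusted p under 0.05. The part of these cells in the levels of the 10 enzymes was not tested, and in bulk RNA fewer cells of a type and less RNA per cell cannot be told apart.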

How the data were processed

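RNA-seq libraries from 2 control shRNA and 2 DcpS shRNA cultures were compared. The submitters' processing notes name HISAT2 2.2.0, SAMtools 1.3.1, Picard, featureCounts and DESeq2 with GRCm38; for annotation, strand and multi-mapping the settings were not given in these sources, so reads shared by overlapping or near-identical genes are uncertain. The deposited values are a signal, normalised read counts: every value was a whole multiple of its column's smallest positive value (100% within 0.001), and the implied factors, 1.05 and 0.975 for controls and 1.10 and 0.895 for DcpS shRNA, match median-of-ratios size factors. Such scaling cannot show a shift of all transcripts together. A count of 0 allows up to 3 reads, 0.138 to 0.169 CPM, for counting error only.

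The main test was limma 3.58.1 (R 4.3.3) on log2(value + 1), with intensity trend and robust empirical Bayes, on 18110 genes kept by filterByExpr (minimum count 10, minimum total 15). Fold changes on this scale understate changes of low genes. Library pairs within a group differed beyond sampling noise (chi-square per degree of freedom 2.15 and 4.03). Alternatives were edgeR 4.0.16 and DESeq2 1.42.0 on recovered reads, other pseudocounts, scalings and filters, no trend, a replicate block, and leaving out each library. Exon lengths, coordinates and sequences came from GENCODE M21.

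The members, gene lists and test were chosen with earlier results of these data known. Genes named were the 10 members, called genes of each pathway list or its largest change, the 5 genes nearest Dcps, and genes overlapping or next to a member where they bear on it; others named were chosen after their values were seen. A gene that this rule selects is not reported here.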

Additional observations from a re-analysis of the deposited data

How the results depend on the processing

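Of the 10 enzymes, 1 was called (Dcps) under 12 of 13 alternatives; with no intensity trend and no robust step in limma, 0 were called and 0 of all genes, against 2538 genes at an unadjusted p under 0.05 there (limma, Dcps Benjamini-Hochberg adjusted p 0.178, log2 fold change −2.10). The count over all genes, 1048, became 448 with DESeq2 and 1626 with the replicate block, and ran from 747 to 1745 with 1 library left out, the latter without DcpS shRNA 1. The block rests on the labels set 1 and set 2, which the sample titles of both groups carry. They may mark a shared preparation, but nothing in the labels explains them, and the main fit did not use them. Differences between replicates 1 and 2 correlated between the groups at r = 0.0429 over 18110 genes, and the pairing changed no call of the 10 enzymes. The 2 calls in the pathway lists became 1 with no filter, with library-total or TMM scaling and with edgeR, 0 with DESeq2 and with no trend, and ran from 0 (without control 2) to 5 (without DcpS shRNA 1) with 1 library left out. The remaining level of Dcps was 23.25% with library-total scaling and 23.18% with TMM scaling. It was 23.1% without control 1 and 23.42% without control 2. Leaving out a knockdown library gave 23.76% (without DcpS shRNA 1) and 22.75% (without DcpS shRNA 2). With 2 libraries such a move is always smaller than their SD, so it is no check of the level. Values near 0 changed sign only with 1 library left out. Fhit then ran from −0.50 (without DcpS shRNA 2; −0.24 without control 1) to 0.60, Dxo from −0.043 (without control 2; −0.018 without DcpS shRNA 1) to 0.091, Hint2 from −0.062 to 0.041 (without control 2) and Aptx from −0.086 to 0.0076 (without control 2). Depth limits Fhit most, then Hint3.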
